A study of Mus musculus with 2 samples.

Results

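The 10 Sox genes described here are Sox2, Sox21, Sox4, Sox11, Sox12, Sox5, Sox6, Sox9, Sox17 and Sox18, taken by name from the 19550 genes of the count table, and all 10 were measured. Their summed counts came to 80615 unique molecular identifiers (UMIs, each standing for 1 captured RNA molecule), or 0.0747% of all UMIs. The levels were read in single cells of the developing mouse esophagus, of the gastro-esophageal squamocolumnar junction (GE-SCJ), where the flat squamous lining of the esophagus meets the glandular columnar lining of the stomach, and of the stomach.

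The mice were wild-type C57BL/6 and received no treatment. They were taken at embryonic day 15 (E15), at embryonic day 19 (E19), 2 days after birth (pup) and at 8 weeks of age (adult), and the design text gives 6, 2, 2 and 3 mice for these stages, whereas the methods speak of tissue of 3 mice combined. Tissue of several mice was pooled under 1 oligonucleotide tag for each region and stage, so each of the 11 tagged groups was 1 sample, and differences between mice could not be measured. No cell of the adult stomach carried a tag in these files, and the adult stomach was not analysed here. The groups held 143 to 1403 cells each and came from 1 gene expression library of 7808 cells with a median of 10424.5 UMIs per cell and no shared cell barcode. Because there were no replicates, no test across samples was possible. Levels are CPM, the UMIs of a gene divided by all UMIs of the group's summed cells and scaled to 1000000 UMIs, and every interval in square brackets is an exact 95% interval that covers counting error only.

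Cell types were the study's own 9 labels: 3442 Stromal, 1540 Columnar Epithelial, 1027 Smooth Muscle, 690 Squamous Epithelial, 419 Neural, 354 Immune, 157 Endothelial, 139 Stromal-2 and 40 Squamous Epithelial-2 cells. Markers followed most labels: Trp63 and Krt5 stood at 212 and 1188 CPM in Squamous Epithelial cells, Cldn18 at 1037 CPM in Columnar Epithelial cells, Col1a1 at 6885 CPM in Stromal cells, Myh11 at 3738 CPM in Smooth Muscle cells, Cdh5 at 960 CPM in Endothelial cells, and Foxd3 at 381 CPM in Neural cells. The exceptions were Stromal-2, where Upk3b and Wt1, genes of the mesothelium, were highest at 864 and 388 CPM, and Squamous Epithelial-2, which had no Trp63 UMI, Krt5 at 12.6 CPM and Krt13 at 8826 CPM. Of the other mesothelial genes looked up, Lrrn4 was also highest in Stromal-2, at 258 CPM. Msln and Krt19 were highest in Squamous Epithelial-2, at 881 and 3535 CPM, against 331 and 719 CPM in Stromal-2. Stromal-2 also held the fibroblast gene Col1a1, at 3159 CPM. In what follows, squamous cells are both squamous labels and stroma is the Stromal and Smooth Muscle labels, while Stromal-2 was kept apart. Of the 478 adult cells, 45 had mostly prenatal cells as their nearest neighbors in expression, 26 of them among the 143 adult GE-SCJ cells, so adult GE-SCJ values are given with and without them where they matter. These cells were picked by expression in the same data. Leaving them out therefore favors lower adult values of genes that are high before birth, and whether their tags were wrong was not tested.

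Sox proteins are transcription factors that bind DNA through a high mobility group (HMG) box, a domain that fits into the minor groove and bends the helix. The family is divided into groups by the likeness of the box, and members of a group often act in the same cells. Sox2 and Sox21 belong to group B, Sox4, Sox11 and Sox12 to group C, Sox5 and Sox6 to group D, Sox9 to group E, and Sox17 and Sox18 to group F. In the foregut, Sox2 is known as a factor of the esophagus and forestomach lining, and Sox9 as a factor of endodermal progenitors, cartilage and glands.

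The coding stretch of 60 bases near the start of the HMG box shows how the groups differ, and it is printed 5′ to 3′ for each gene, as read from the reference transcripts of the GRCm38 annotation, with capitals at the bases that differ from Sox2.
Sox2: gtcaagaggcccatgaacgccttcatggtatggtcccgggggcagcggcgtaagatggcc
Sox21: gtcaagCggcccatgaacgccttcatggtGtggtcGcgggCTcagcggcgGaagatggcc
Sox4: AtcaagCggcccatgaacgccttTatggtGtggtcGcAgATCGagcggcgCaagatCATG
Sox11: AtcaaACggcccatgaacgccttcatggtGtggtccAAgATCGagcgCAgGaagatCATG
Sox12: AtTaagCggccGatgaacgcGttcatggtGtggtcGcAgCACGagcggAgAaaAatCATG
Sox5: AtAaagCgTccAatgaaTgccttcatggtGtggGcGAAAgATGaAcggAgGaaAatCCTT
Sox6: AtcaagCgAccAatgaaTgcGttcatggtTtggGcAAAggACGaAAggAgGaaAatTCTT
Sox9: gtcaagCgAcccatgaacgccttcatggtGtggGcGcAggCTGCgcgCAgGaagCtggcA
Sox17: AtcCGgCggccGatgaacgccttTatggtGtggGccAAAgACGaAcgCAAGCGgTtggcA
Sox18: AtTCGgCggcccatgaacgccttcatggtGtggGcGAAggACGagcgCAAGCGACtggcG
Sox21 differed from Sox2 at 6 of these bases and in 1 encoded residue, Sox9 at 15 bases and 5 residues, the group C genes at 15 to 19 bases and 6 residues each, the group D genes at 23 bases and 7 residues each, and the group F genes at 22 and 23 bases and 9 residues each. Over 237 bases of the box, the 6 pairs within a group were 81.4% to 88.6% identical (median 83.1%), with Sox4 and Sox11 the closest, and the 39 pairs between groups were 53.2% to 76.4% identical (median 65.0%).

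In GRCm38 coordinates, Sox2 lies on the plus strand at chr3:34650405-34652461 as a single exon that overlaps the span of the same-strand gene Sox2ot. Reads from any exon that these genes share could not be told apart, and whether they share one was not examined. Sox9 lies on the plus strand at chr11:112782224-112787760 in 3 exons. The other 8 genes lie on minus strands: Sox21 at chr14:118233232-118237030, Sox4 at chr13:28948919-28953713, Sox11 at chr12:27334264-27342574, Sox12 at chr2:152393611-152398063, Sox17 at chr1:4490931-4497354, Sox18 at chr2:181669836-181671640, Sox5 at chr6:143828425-144781977 and Sox6 at chr7:115470872-116038796. Sox5 and Sox6 are the long genes of the set, with 14 and 16 annotated transcripts over 953553 and 567925 bases. The span of Sox5 also overlaps the same-strand genes Gm44068 and Sox5it.

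The label with the highest level differed between Sox genes, although some genes shared a label. Across the 9 labels, Sox2 was highest in Squamous Epithelial cells at 175 CPM [167, 183], followed by Neural cells at 121 CPM [110, 133] and Columnar Epithelial cells at 51.8 CPM [49.7, 54.0]. Sox21 stood at 111 CPM in Squamous Epithelial and 108 CPM in Columnar Epithelial cells and at 27.0 CPM or less elsewhere. Sox9 was highest in Columnar Epithelial cells at 335 CPM [330, 340], against 59.8 CPM in Squamous Epithelial and 58.4 CPM in Stromal cells. Sox4 and Sox11 were highest in Neural cells, at 942 CPM [911, 974] and 891 CPM [861, 921].

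**Figure D1:**
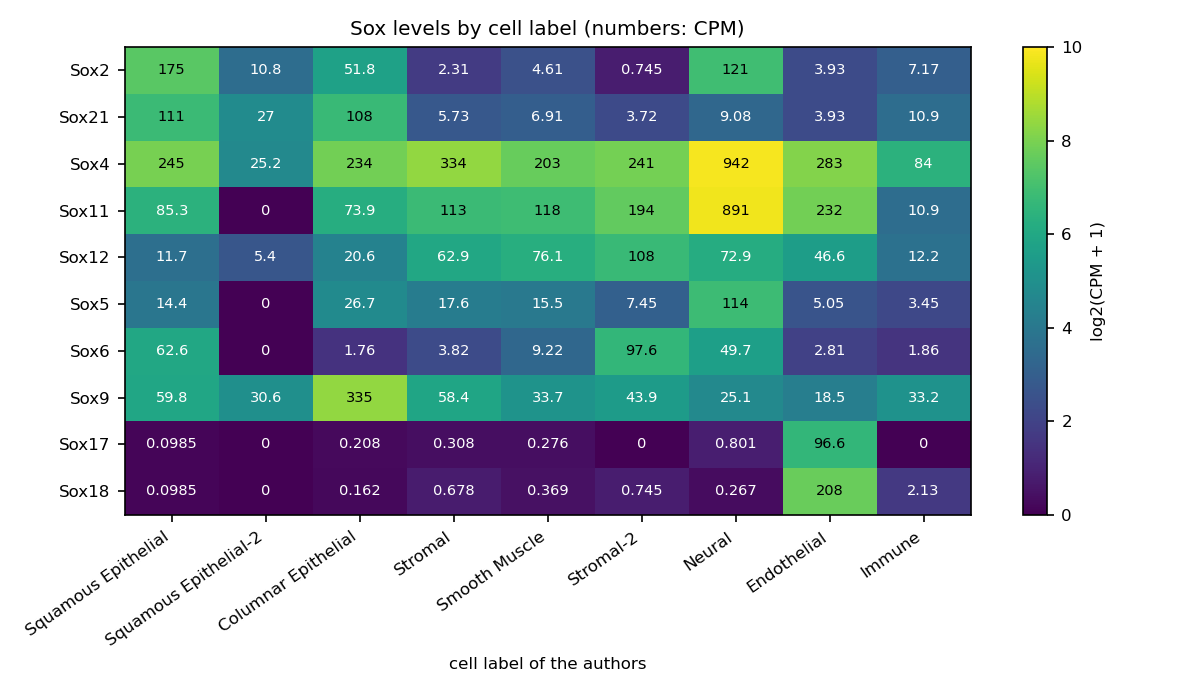
Level of the 10 Sox genes (rows, by Sox group) in the 9 cell labels (columns), with the CPM printed in each cell and color giving log2(CPM + 1). Sox17 and Sox18 read 96.6 and 208 CPM in Endothelial cells and at most 2.13 CPM in any other label, while Sox4 is read in every label and is highest in Neural cells at 942 CPM.

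Sox12 was highest in Stromal-2 cells at 108 CPM, followed by Smooth Muscle cells at 76.1 CPM and Neural cells at 72.9 CPM. Sox5 was highest in Neural cells at 114 CPM, and Sox6 in Stromal-2 cells at 97.6 CPM, Squamous Epithelial cells at 62.6 CPM and Neural cells at 49.7 CPM. Sox17 and Sox18 were endothelial genes here, at 96.6 CPM [82.7, 112] and 208 CPM [187, 230]. Immune cells, taken as a rough reference for low levels, read 7.17 CPM for Sox2, 10.9 CPM for Sox21 and Sox11, 33.2 CPM for Sox9 and 84.0 CPM for Sox4. Free RNA itself was not measured, and RNA made by the immune cells could not be told apart from it. Immune Sox4 ran from 22.5 CPM in the pup GE-SCJ to 141 CPM in the esophagus at E19. The immune Sox9 level was uneven: 27 UMIs in 3 of 26 cells of the esophagus at E15 gave 92.6 CPM and 23 UMIs in 4 of 17 cells of the pup stomach gave 160 CPM, while the other groups of at least 20 cells read 15.3 to 34.9 CPM.

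Shares of cells with a UMI were compared after each cell was thinned to 5000 UMIs, because the median depth ran from 7900 UMIs in Neural to 25118 UMIs in Columnar Epithelial cells, and 1135 shallower cells were left out. Sox4 was then detected in 90.5% of Neural, 69.3% of Stromal and 22.5% of Immune cells. Sox9 was detected in 65.3% of Columnar Epithelial cells (87.9% before thinning) and 9.49% of Immune cells (17.2% before thinning). Sox2 was detected in 52.4% of Squamous Epithelial, 42.6% of Neural, 20.97% of Columnar Epithelial and 1.98% of Immune cells, against 73.6%, 53.2%, 52.9% and 3.67% before thinning. Several Sox genes were often read in the same cell: 71.4% of Neural, 45.8% of Endothelial, 39.9% of Columnar Epithelial and 39.4% of Squamous Epithelial cells held 3 or more of the 10, against 2.77% of Immune cells. In Squamous Epithelial-2 cells no cell held 3 or more, and 67.6% held none.

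Sox2, a group B factor that keeps progenitors of the foregut lining and of the nervous system, was higher in squamous than in columnar cells of the GE-SCJ, and the gap was widest in the pup. In squamous cells of the esophagus it stood at 245 CPM [215, 278] (E15), 214 CPM [192, 237] (E19), 95.6 CPM [77.2, 117] (pup) and 132 CPM [120, 145] (adult). In squamous cells of the GE-SCJ it stood at 310 CPM [274, 348], 124 CPM [96.4, 158], 152 CPM [124, 185] and 117 CPM [100, 135] at the same stages. Both squamous regions were highest at E15, and the intervals of the 3 later GE-SCJ stages overlapped.

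In columnar cells of the GE-SCJ, Sox2 stood at 194 CPM [171, 219] (E15), 85.7 CPM [79.1, 92.8] (E19) and 22.8 CPM [19.7, 26.3] (pup). In columnar cells of the stomach it stood at 90.1 CPM [80.9, 100] (E15), 63.1 CPM [58.1, 68.3] (E19) and 11.7 CPM [9.83, 13.9] (pup). At each of these 3 stages the GE-SCJ columnar level lay above that of the stomach, with intervals that did not overlap. The 19 adult columnar cells of the GE-SCJ read 76.6 CPM [54.2, 105], and 9 of these 19 were cells with mostly prenatal neighbors.

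The log2 ratio of squamous over columnar cells of the GE-SCJ for Sox2 was 0.67 [0.42, 0.92] (E15), 0.56 [0.17, 0.92] (E19) and 2.74 [2.38, 3.10] (pup). Only the pup ratio was past 2-fold, and its interval lay above those of E15 and E19. In the adult the ratio was 0.58 [0.07, 1.11], and it was 1.59 without the cells of mostly prenatal neighbors. After thinning, 57.1% of squamous and 12.0% of columnar GE-SCJ cells of the pup held a Sox2 UMI, against 77.8% and 53.8% at E15.

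**Figure D2:**
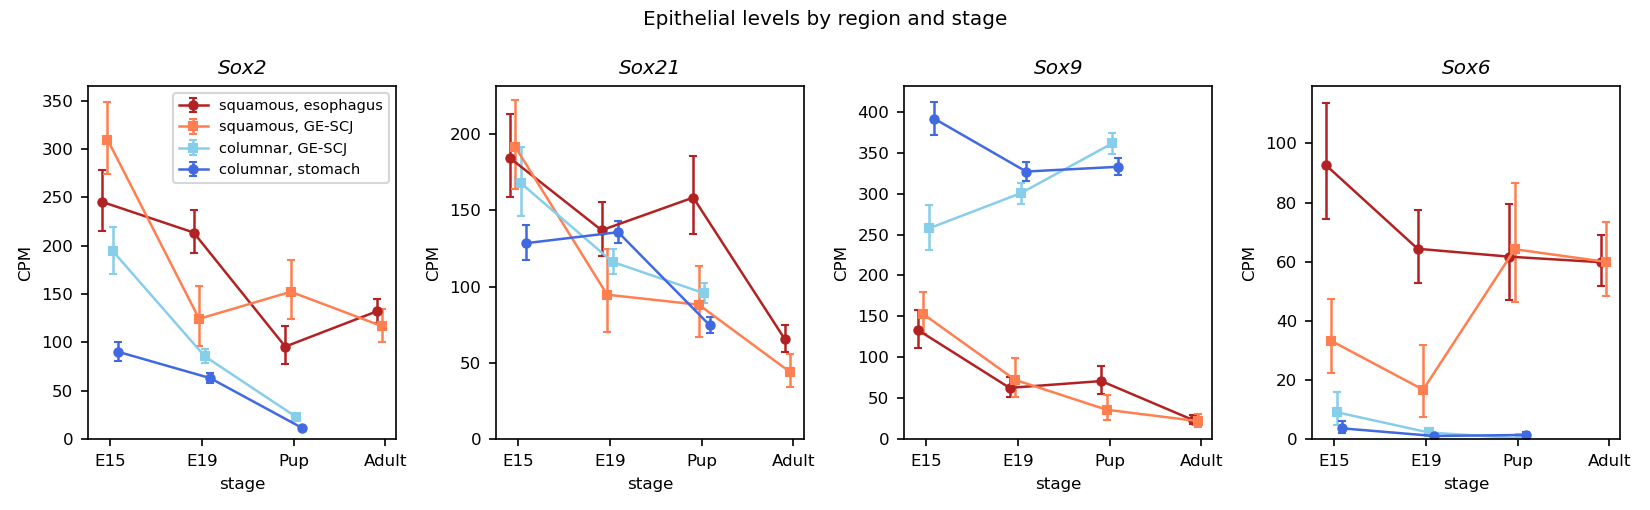
Level (CPM, vertical axis) of Sox2, Sox21, Sox9 and Sox6 at E15, E19, pup and adult in squamous cells of the esophagus and GE-SCJ and columnar cells of the GE-SCJ and stomach, with bars for the exact 95% Poisson interval; groups under 20 cells are not drawn. Sox2 in columnar cells ends at 22.8 CPM in the GE-SCJ and 11.7 CPM in the stomach of the pup, while Sox9 in columnar cells reads 258 to 392 CPM up to the pup.

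Sox21, the other group B gene, known mainly as a repressor that counters Sox2-type factors in progenitors, had like levels in squamous and columnar cells of the GE-SCJ up to the pup. In GE-SCJ columnar cells it stood at 168 CPM (E15), 116 CPM (E19) and 95.6 CPM (pup), and in GE-SCJ squamous cells at 191, 94.6 and 88.1 CPM. The log2 ratio of squamous over columnar was 0.19 [-0.10, 0.48] (E15), -0.27 [-0.70, 0.14] (E19) and -0.10 [-0.50, 0.28] (pup), and all 3 intervals held 0. In the adult the ratio was -1.73 [-2.22, -1.23], with 43.8 CPM in squamous and 145 CPM in the 19 columnar cells, and it was -1.35 for Sox21 without the cells of mostly prenatal neighbors. Stomach columnar cells read 128 CPM (E15), 136 CPM (E19) and 74.6 CPM (pup), and esophageal squamous cells 184, 137 and 158 CPM, with 65.4 CPM (adult).

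Both group B genes were read more in squamous cells with Trp63, the factor of the basal layer, than in squamous cells without it. With cells of 2 or more Trp63 UMIs set against cells of none within a stage, the log2 ratio for Sox2 was 0.30 (E15), 1.11 (E19), 2.14 (pup) and 1.18 (adult), and for Sox21 it was 0.20, 0.68, 2.26 and 1.36. At E15 the intervals of both held 0, [-0.03, 0.63] and [-0.19, 0.60]. These splits pool the regions, and the Trp63-positive cells were deeper, with a median of 12804 against 10108.5 UMIs, a difference whose part in the ratios was not tested. The Squamous Epithelial-2 cells, which had no Trp63 UMI, count among the negative cells. In the pup esophagus they were 29 of the 37 negative cells, so the pup ratios also carry the difference between the 2 squamous labels. Sox2 was also higher in squamous cells with 2 or more UMIs of the proliferation gene Mki67 than in those with none, at 363 against 228 CPM (E15), 335 against 167 CPM (E19), 198 against 94.8 CPM (pup) and 233 against 95.6 CPM (adult). In single squamous cells, thinned, Sox21 was detected in 45.5% [39.7, 51.3] of the 297 cells with Sox2 and in 31.0% of the 303 cells without it. This difference was not seen in every group: it was 72.7% against 34.0% in the pup esophagus and close to equal in the esophagus at E19, where it was 50.9% among cells with Sox2.

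Outside the epithelium, Sox2 was read in neural cells at 87.5 to 191 CPM over the 7 region and stage groups of at least 20 cells, whereas Sox21 there was at most 24.9 CPM. Stroma read 1.35 to 8.93 CPM of Sox2, near the level of immune cells. Within stroma, cells with 2 or more UMIs of Kit, the receptor that marks interstitial cells of Cajal, read 13.3 CPM of Sox2 against 2.05 CPM in cells with none at E15, a log2 ratio of 2.72 [1.82, 3.60], and 8.27 against 2.64 CPM at E19, a ratio of 1.79 [0.59, 2.82]. These Kit-positive cells numbered 136 and 118, and the levels were low in all 4 groups.

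The group C genes Sox4, Sox11 and Sox12 are known for acting together in progenitor cells, in early neurons and in embryonic mesenchyme. The levels of all 3 genes were higher at E15 than in the pup in the columnar, squamous and stromal groups described next, apart from Sox4 in esophageal squamous cells. In esophageal stroma and GE-SCJ squamous cells the Sox4 intervals of E15 and pup overlapped. A link between promoter bases and these levels was not tested. The 250 bases before the RefSeq start sites of the 3 genes are shown (GRCm38.p6, minus strands, chr13:28953700-28953949 for Sox4, chr12:27342719-27342968 for Sox11 and chr2:152398047-152398296 for Sox12), with capitals at CCAAT or, for its reverse strand, ATTGG.
Sox4: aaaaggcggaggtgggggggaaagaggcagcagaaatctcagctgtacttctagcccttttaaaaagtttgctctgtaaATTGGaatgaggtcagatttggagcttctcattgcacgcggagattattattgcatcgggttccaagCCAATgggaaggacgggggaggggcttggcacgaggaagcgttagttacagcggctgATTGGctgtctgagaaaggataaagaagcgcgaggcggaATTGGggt
Sox11: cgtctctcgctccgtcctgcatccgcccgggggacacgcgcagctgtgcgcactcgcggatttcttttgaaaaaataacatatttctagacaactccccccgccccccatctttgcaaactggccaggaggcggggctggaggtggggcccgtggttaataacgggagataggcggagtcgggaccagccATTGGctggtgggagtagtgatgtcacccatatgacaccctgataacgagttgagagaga
Sox12: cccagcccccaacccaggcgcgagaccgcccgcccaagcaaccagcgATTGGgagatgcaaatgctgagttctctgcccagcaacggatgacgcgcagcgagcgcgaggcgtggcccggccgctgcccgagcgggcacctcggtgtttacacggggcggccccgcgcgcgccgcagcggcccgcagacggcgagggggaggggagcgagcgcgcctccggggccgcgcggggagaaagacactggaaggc
The Sox4 window held 4 such matches, at 171, 104, 47 and 8 bases before the start, and the Sox11 and Sox12 windows held 1 each, at 60 and 203 bases. These RefSeq starts differ from the gene coordinates given above, and the Sox4 match at 8 bases lies inside the Sox4 coordinates given there. CCAAT on either strand was present in 33.8% of all 32851 promoter windows of this length. It was present in 6 of the 12 windows found for 7 of the 10 Sox genes, with windows of Sox2 and Sox6 among them. TATAAA on either strand was present in 12.4% of all windows and in 1 of the 12, that of a Sox6 transcript. The GC content was 50.8% for Sox4, 58.0% for Sox11 and 74.4% for Sox12, beside a median of 52.4% over all windows.

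Sox11 had the largest differences between stages of the 10 genes. In columnar cells of the stomach it stood at 245 CPM [229, 261] (E15), 52.8 CPM (E19) and 3.24 CPM [2.28, 4.47] (pup), a log2 ratio of E15 over pup of 6.20 [5.73, 6.71]. In squamous cells of the esophagus it stood at 496 CPM [453, 542] (E15), 83.1 CPM (E19), 17.5 CPM (pup) and 5.30 CPM (adult). The log2 ratio of E15 over E19 was 2.57 [2.30, 2.85], that over pup 4.75 [4.07, 5.51] and that over adult 6.47 [5.79, 7.24]. The pup level in stomach columnar cells and the pup and adult levels in esophageal squamous cells lay near the 10.9 CPM read in immune cells. The 19 adult columnar cells of the GE-SCJ read 52.4 CPM [34.3, 76.8] of Sox11, and 9 of these 19 had mostly prenatal neighbors.

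In stroma the same order of stages was seen. Sox11 stood at 103, 46.0 and 14.8 CPM at E15, E19 and pup in the esophagus, at 155, 75.8 and 14.5 CPM in the GE-SCJ and at 292, 106 and 51.8 CPM in the stomach. The log2 ratios of E15 over pup were 2.67 [1.86, 3.64], 3.32 [2.59, 4.16] and 2.47 [2.08, 2.89]. Adult stroma read 6.01 CPM in the esophagus and 129 CPM in the GE-SCJ, where the value was 22.8 CPM without the 12 of 31 cells with mostly prenatal neighbors.

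Sox11 also differed by region. Esophageal over stomach stroma gave a log2 ratio of -1.50 [-1.65, -1.36] (E15) and -1.20 [-1.38, -1.02] (E19), so the stomach level was past 2-fold at both stages. Within the Stromal label alone the ratios were -1.36 and -1.09, and within the Smooth Muscle label alone -2.14 and -2.77. In GE-SCJ epithelium at E15, Sox11 stood at 442 CPM [407, 479] in columnar and 140 CPM in squamous cells, a log2 ratio of squamous over columnar of -1.64 [-1.93, -1.37], although squamous cells of the esophagus at that stage read 496 CPM.

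**Figure D3:**
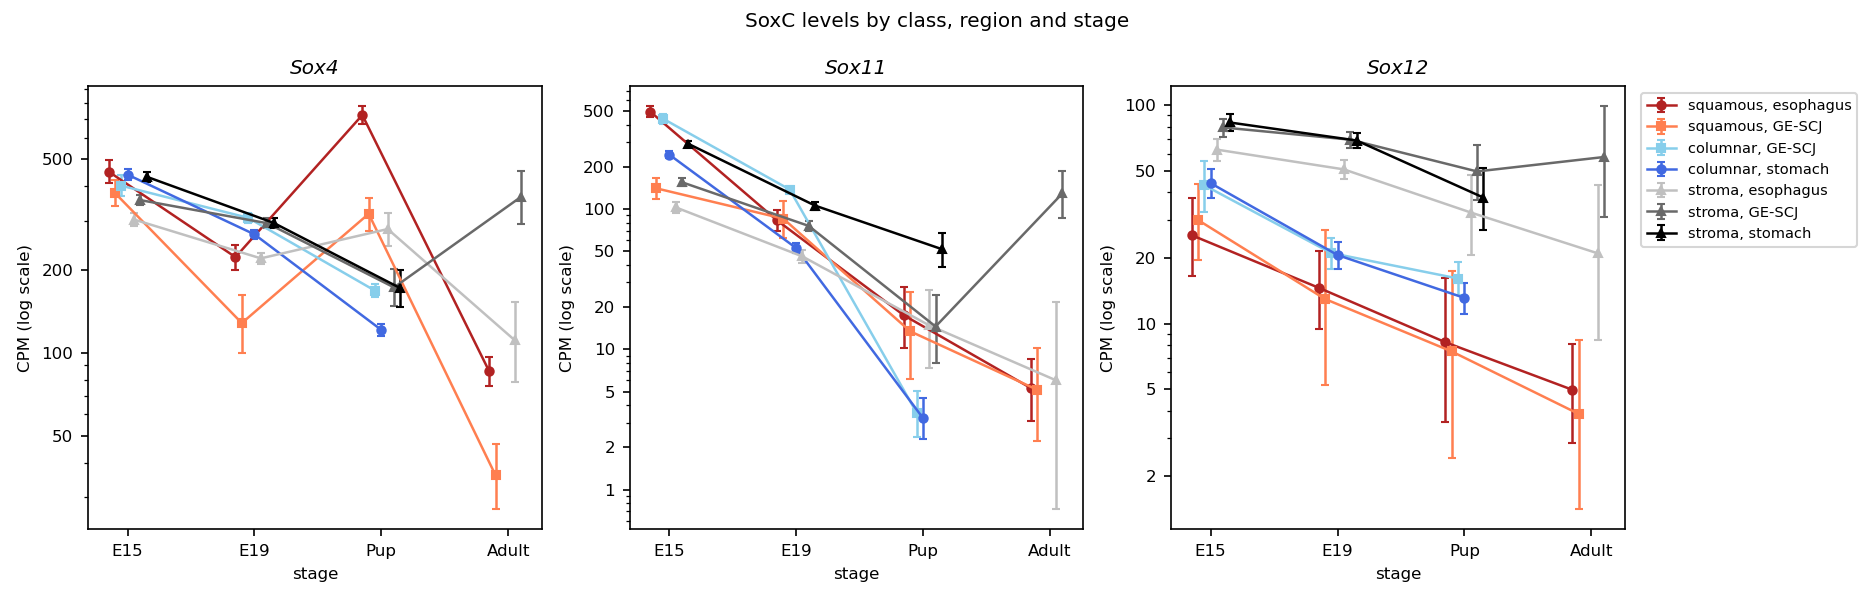
Level (CPM, log axis) of Sox4, Sox11 and Sox12 at E15, E19, pup and adult in squamous, columnar and stromal cells of each region, with bars for the exact 95% Poisson interval. In stomach columnar cells Sox11 reads 245 CPM (E15) and 3.24 CPM (pup), whereas Sox4 in esophageal squamous cells reads 452, 222, 724 and 85.7 CPM over the 4 stages.

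Sox4 had smaller ratios between stages than Sox11, and in squamous cells its order of stages was another. In columnar cells of the stomach it stood at 441 CPM (E15), 268 CPM (E19) and 121 CPM (pup), a log2 ratio of E15 over pup of 1.86 [1.76, 1.97]. In squamous cells of the esophagus it stood at 452 CPM [411, 496] (E15), 222 CPM [200, 245] (E19), 724 CPM [671, 779] (pup) and 85.7 CPM [75.9, 96.4] (adult). The 4 intervals did not overlap, and the pup was highest. In squamous cells of the GE-SCJ the values were 378, 128, 318 and 36.1 CPM, and there E15 was highest.

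In the pup esophagus the Sox4 counts lay almost wholly in the Squamous Epithelial label. Its 56 cells read 1223 CPM of Sox4, against 14.9 CPM in the 29 Squamous Epithelial-2 cells, and 41 cells with 2 or more Trp63 UMIs read 1224 CPM against 132 CPM in 37 cells with none. The same division held for the other genes of the set there: Sox2 read 156 against 9.96 CPM in the 2 labels, Sox21 259 against 14.9 CPM, Sox9 112 against 12.4 CPM, and Sox6 105 against 0 CPM. With the Squamous Epithelial label alone, the log2 ratio of E15 over pup in the esophagus was -1.43 [-1.61, -1.26] for Sox4, where both labels together gave -0.68 [-0.85, -0.51]. For Sox2 it was 0.64 with the label alone and 1.35 [1.00, 1.71] with both labels, so the 2-fold difference in Sox2 was reached only with the Squamous Epithelial-2 cells included.

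At the GE-SCJ the direction of Sox4 between the epithelia turned with stage. The log2 ratio of squamous over columnar was -0.09 [-0.29, 0.11] (E15), -1.24 [-1.61, -0.90] (E19) and 0.93 [0.71, 1.14] (pup). Columnar cells read 402, 308 and 168 CPM at these stages. In the adult the ratio was -2.60 [-3.08, -2.12], or -2.04 without the cells of mostly prenatal neighbors, with 36.1 CPM in squamous and 220 CPM in columnar cells.

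In stroma Sox4 stood at 303, 219, 280 and 111 CPM in the esophagus over the 4 stages, at 356, 294, 172 and 366 CPM in the GE-SCJ, where the adult value was 148 CPM without the cells of mostly prenatal neighbors, and at 433, 295 and 171 CPM in the stomach. The log2 ratio of E15 over pup was 0.11 in the esophagus, 1.04 [0.81, 1.28] in the GE-SCJ and 1.33 [1.11, 1.56] in the stomach. The makeup of the stroma moved too: Smooth Muscle cells were 27.2% of GE-SCJ stroma at E15 and 59.2% in the pup, 23.6% and 59.2% in the stomach, and 21.1% and 12.7% in the esophagus. Within the Stromal label alone the Sox4 ratio was 1.46 in the GE-SCJ and 1.76 in the stomach, and within the Smooth Muscle label alone 0.21 and 0.66.

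Sox12, the third gene of the group, was highest in mesenchymal labels and in neural cells. Its level over the 3 earlier stages was 62.7, 50.9 and 32.3 CPM in esophageal stroma, 79.2, 69.7 and 49.8 CPM in GE-SCJ stroma and 83.5, 69.1 and 37.8 CPM in stomach stroma. Columnar cells of the stomach read 44.0, 20.6 and 13.1 CPM, a log2 ratio of E15 over pup of 1.74 [1.42, 2.07], and squamous cells of the esophagus 25.4, 14.6 and 8.23 CPM. Stromal-2 cells, which were highest in the mesothelial genes Upk3b and Wt1, read 102 CPM (E15), 95.7 CPM (E19) and 135 CPM (pup) of Sox12. Sox4 in the same cells read 303, 249 and 178 CPM and Sox11 379, 193 and 42.4 CPM.

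Before birth, neural cells of the gut include glia-like progenitors and young neurons of the enteric nervous system. Neural cells held the highest Sox4 and Sox11 levels of the 9 labels over all stages together. In the pup, however, squamous cells read 534 CPM [500, 570] of Sox4 against 314 CPM [251, 387] in neural cells. At E15 Sox11 stood at 887 CPM in the esophagus, 1357 CPM in the GE-SCJ and 1172 CPM in the stomach, at E19 at 631 CPM in the GE-SCJ and 741 CPM in the stomach, and in the pup at 160 CPM in the stomach, with a single UMI in the 24 neural cells of the pup esophagus. Sox4 stood at 1206, 1201 and 859 CPM in the 3 regions at E15, and at 418 CPM in the pup esophagus and 231 CPM in the pup stomach. Cells with 2 or more UMIs of the neuronal gene Elavl4 read 1756 CPM of Sox11 against 510 CPM in cells with none at E15, a log2 ratio of 1.78 [1.64, 1.92], and 1729 against 316 CPM at E19, a ratio of 2.45 [2.23, 2.66]. For Sox4 the ratios were 0.86 and 1.22. The Elavl4-positive cells had a median of 11437 UMIs and the others 6835.

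Sox5 was lower in Elavl4-positive cells, at 35.1 against 150 CPM (E15) and 58.9 against 184 CPM (E19), and so was Sox2, with log2 ratios of -0.66 and -1.05. In stroma, Sox11 was higher in cells with 2 or more Mki67 UMIs, at 252 against 158 CPM (E15) and 148 against 56.5 CPM (E19), whereas Sox4 gave log2 ratios of -0.38 and -0.34 in the same cells.

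**Figure D4:**
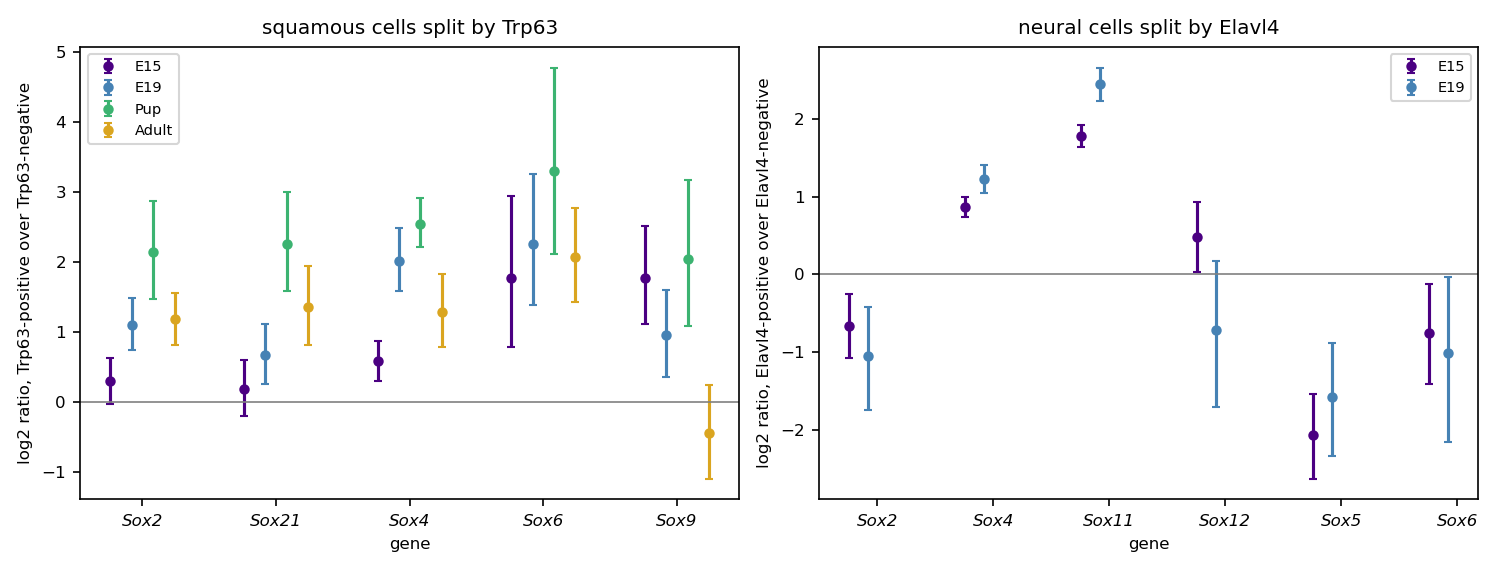
Log2 ratio of the level in cells with 2 or more UMIs of a marker over cells with none, with exact 95% intervals, for squamous cells split by Trp63 at 4 stages and neural cells split by Elavl4 at E15 and E19. All Sox2, Sox21, Sox4 and Sox6 ratios for Trp63 lie above 0 and the Sox9 ratio is -0.43 in the adult. At E15 the intervals of Sox2 and Sox21 hold 0. The Trp63-negative cells include the Squamous Epithelial-2 cells. In the neural split Sox11 reaches 2.45 and Sox5 reaches -2.06.

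Sox5 and Sox6, the group D genes, carry no activation domain of their own and are best known as partners of Sox9 in cartilage. They parted in the epithelium. Among epithelial cells Sox6 was a squamous gene, at 92.6 CPM [74.6, 114] in the esophagus at E15, 64.4 CPM (E19), 61.7 CPM (pup) and 59.8 CPM (adult), and columnar cells read 0 to 9.06 CPM over their 7 groups. In GE-SCJ squamous cells Sox6 stood at 33.2 CPM [22.4, 47.4] (E15), 16.7 CPM [7.64, 31.7] (E19), 64.2 CPM [46.5, 86.5] (pup) and 59.9 CPM (adult). The prenatal GE-SCJ values lay below those of the esophagus, and the intervals of the postnatal ones overlapped. In the pup, however, the Squamous Epithelial label alone read 105 CPM [80.2, 135] in the esophagus and 65.6 CPM [47.5, 88.4] in the GE-SCJ.

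Of Sox2, Sox21, Sox4, Sox6 and Sox9 in Trp63-positive against Trp63-negative squamous cells, Sox6 alone was past 2-fold at all 4 stages. It stood at 75.4 against 19.8 CPM (E15), 82.4 against 15.98 CPM (E19), 105 against 8.98 CPM (pup) and 84.9 against 19.4 CPM (adult), with log2 ratios of 1.77, 2.26, 3.29 and 2.07. The negative cells again included Squamous Epithelial-2, which in the pup esophagus held 29 of 37 such cells and read 0 CPM of Sox6. Stromal-2 cells also held Sox6, at 105, 91.1 and 95.4 CPM at E15, E19 and pup, while stroma read 1.35 to 39.0 CPM.

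Sox5 in epithelium was highest in GE-SCJ squamous cells at E15. There it stood at 70.8 CPM [54.5, 90.4] (E15) and 37.1 CPM (E19), followed by 19.4 CPM (pup) and 2.58 CPM (adult). Esophageal squamous cells read 19.3, 7.61, 2.06 and 1.56 CPM over the same stages. Columnar cells read 52.1, 40.6 and 19.3 CPM in the GE-SCJ and 34.4, 31.1 and 12.9 CPM in the stomach, and the stomach log2 ratio of E15 over pup was 1.42 [1.07, 1.77]. Neural cells read a median of 124 CPM and at most 185 CPM over their 7 groups.

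In stroma Sox5 went the other way with stage, and the cell labels differed. GE-SCJ stroma read 21.1, 19.9 and 40.5 CPM at E15, E19 and pup, and stomach stroma 15.9, 21.8 and 37.8 CPM, with log2 ratios of E15 over pup of -0.97 [-1.49, -0.41] and -1.27 [-1.83, -0.69]. Within Smooth Muscle cells the levels were 16.7, 5.80 and 54.4 CPM in the GE-SCJ and 17.5, 9.30 and 62.7 CPM in the stomach, with ratios of -1.70 [-2.47, -0.93] and -1.83 [-2.58, -1.09]. Within Stromal cells they were 23.1, 25.9 and 20.3 CPM and 15.2, 25.4 and 6.72 CPM, with ratios of 0.03 and 0.79 [-0.65, 2.71]. Smooth Muscle cells were also a larger share of these stromata in the pup, as given above for Sox4. Esophageal stroma read 6.07, 8.87, 8.08 and 9.01 CPM, and its log2 ratio against stomach stroma was -1.36 [-1.999, -0.75] (E15) and -1.28 [-1.71, -0.87] (E19).

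**Figure D5:**
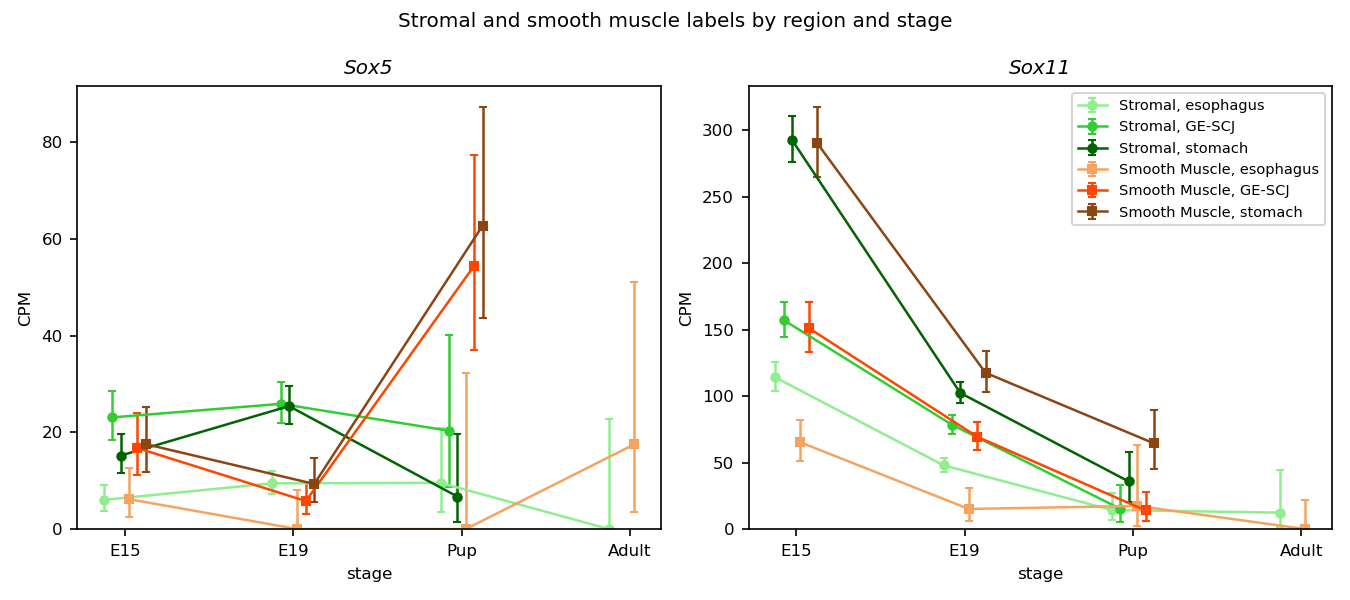
Level (CPM) of Sox5 and Sox11 at each stage in the Stromal and Smooth Muscle labels of the 3 regions, with bars for the exact 95% Poisson interval. Sox5 in Smooth Muscle cells reaches 54.4 CPM in the GE-SCJ and 62.7 CPM in the stomach of the pup, while Sox11 at E15 reads 293 CPM in Stromal and 290 CPM in Smooth Muscle cells of the stomach.

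Sox9, the group E gene, was highest in columnar cells of the epithelial classes at every stage, and its columnar levels lay within 2-fold of each other. In the stomach it stood at 392, 327 and 333 CPM at E15, E19 and pup, a log2 ratio of E15 over pup of 0.24 [0.15, 0.32]. In the GE-SCJ it stood at 258 CPM [231, 286], 301 CPM, 361 CPM [349, 375] and 448 CPM [391, 511] over the 4 stages. That adult value came from 19 columnar cells, 9 of them with mostly prenatal neighbors. Squamous cells of the esophagus read 133, 62.6, 70.9 and 23.4 CPM, and the pup value was 112 CPM [86.3, 143] within the Squamous Epithelial label alone. Squamous cells of the GE-SCJ read 153, 72.4, 35.8 and 21.9 CPM over the 4 stages. The adult was lowest in both regions, below the 33.2 CPM of all immune cells.

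The squamous over columnar ratio of Sox9 at the GE-SCJ lay farther from 0 at each later stage up to the pup, with intervals that did not overlap. Its log2 values were -0.75 [-1.04, -0.46] (E15), -2.02 [-2.51, -1.57] (E19) and -3.28 [-3.91, -2.71] (pup). The adult value of -4.32 [-4.88, -3.80] rests on the same 19 columnar cells, and its interval overlapped that of the pup. Within columnar cells, those with 2 or more UMIs of Muc6, a gland mucin, read 392 against 361 CPM of Sox9 (E15), 411 against 238 CPM (E19) and 424 against 189 CPM (pup), so the log2 ratio was 0.12, 0.79 and 1.17. Over all stages, the 22 columnar cells with 2 or more UMIs of the endocrine gene Chga read 171 CPM against 337 CPM in the 1435 cells with none, a log2 ratio of -0.96 [-1.26, -0.68]. Sox9 was detected in 64.1% of columnar cells with Sox2 and in 65.4% of those without it, and in 71.4% of those with Sox4 against 58.7% of those without. These shares pool regions and stages, and for Sox2 the direction differed between groups. In the pup GE-SCJ, 15.2% of columnar cells with Sox9 and 5.38% without it held Sox2. In the pup stomach these shares were 6.17% and 9.65%. Stroma read 41.3 to 74.1 CPM over its 11 groups.

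Of 8 listed genes of the cartilage matrix, which Sox9, Sox5 and Sox6 control in the skeleton, 7 were measured, and Col2a1, Acan and Comp read at most 1.38, 0.801 and 1.12 CPM in any label. Matn4 was read at 147 CPM in Stromal-2 and 79.3 CPM in Neural cells, and Hapln1 at 27.5 CPM in Endothelial cells.

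Sox17 and Sox18, the group F genes, act in the lining of blood and lymph vessels, Sox17 mainly in arteries and Sox18 also in the first lymphatic cells. Over the 46, 69, 21 and 21 endothelial cells at E15, E19, pup and adult, Sox17 stood at 131 CPM [106, 159], 67.5 CPM, 77.4 CPM and 96.9 CPM, on 101, 56, 9 and 6 UMIs. Sox18 stood at 226 CPM [194, 262], 181 CPM, 189 CPM and 371 CPM [235, 557], on 175, 150, 22 and 23 UMIs. The postnatal values rest on few molecules, and 5 of 21 pup cells and 4 of 21 adult cells held a Sox17 UMI.

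Endothelial cells also held group C genes. Sox11 stood at 323, 187, 77.4 and 0 CPM over the 4 stages, where the adult count of 0 allows up to 48.5 CPM, and Sox4 at 303, 270, 258 and 258 CPM. The 14 endothelial cells with 2 or more UMIs of Prox1, the factor of lymphatic identity, read 25.1 CPM of Sox17 against 104 CPM in the 134 cells with none, a log2 ratio of -1.64 [-3.54, -0.26], at median depths of 5802.5 and 9375 UMIs. After thinning, Sox18 was detected in 19 of the 38 cells with Sox17 and in 45 of the 69 cells without it. Sox7, the other group F gene, was read at 147 CPM in Endothelial cells.

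The counts of Sox genes past 2-fold are given beside those of all genes. A gene counted as past the fold when its level differed by at least 2-fold and at least 100 UMIs were read over both groups. Among squamous and columnar cells of the GE-SCJ at E15, 1 of 6 Sox genes tested was past 2-fold, Sox11, higher in columnar cells, where 6.09% of all 3548 genes tested were, and none was higher in squamous cells, where 3.58% were. At E19, 2 of 7 were higher in columnar cells, Sox4 and Sox9, beside 11.7% of all genes, and none was higher in squamous cells, beside 6.51%. In the pup, Sox2 was higher in squamous cells, beside 7.85% of all genes, and Sox9 in columnar cells, beside 16.3%, of 6 Sox genes tested. Sox6 had too few UMIs to be tested at any of these stages. It read 33.2 CPM in squamous against 9.06 CPM in columnar cells (E15), 16.7 against 2.23 CPM (E19) and 64.2 against 0.244 CPM (pup). Columnar cells held 8193734 UMIs in the pup and squamous cells 669813, so genes high in columnar cells reached the minimum more easily. Of 13 listed factors of foregut epithelium, 7, 8 and 9 were tested at these stages. On the squamous side Trp63 and Pitx1 were past 2-fold at E15, Pitx1 alone at E19, and Trp63, Klf5 and Pitx1 in pup cells. Trp63 was not among the 8 factors tested at E19. On the columnar side Gata4 and Gata6 were past 2-fold at E15, and Gata4, Gata6, Foxa2, Foxa3 and Hnf4a at both later stages. A factor not named was either under the UMI minimum or within 2-fold. The lists of different stages therefore also reflect which factors reached the minimum.

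Between stages, 2 of 6 Sox genes tested in esophageal squamous cells were higher at E15 than in the pup, Sox2 and Sox11, beside 32.5% of all genes, and none was higher in the pup, beside 11.1%. The median log2 ratio was 0.74 over the Sox genes tested and 0.65 over all 2775 genes tested, so the Sox genes lay close to the background there. Because that median is far from 0, the ratios were also read relative to it, which left Sox11 higher at E15 and put Sox4 higher in the pup, and moved the share of all calls that were higher at E15 from 74.5% to 30.8%. Against the adult, 4 of 6 were higher at E15, Sox21, Sox4, Sox11 and Sox9, beside 18% of all genes, and none was higher in the adult, beside 11.3%. There the medians were 1.95 and 0.38, the same 4 genes were past 2-fold after centering, and the share of calls higher at E15 went from 61.4% to 35.4%.

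In stomach columnar cells, 5 of 7 Sox genes tested were higher at E15 than in the pup, Sox2, Sox4, Sox11, Sox12 and Sox5, beside 19% of all genes, and none was higher in the pup, beside 8.97%. The medians were 1.74 over the Sox genes tested and 0.36 over all 9333 genes, and centering kept these 5 genes while the share of calls higher at E15 went from 67.9% to 42.4%. In stroma, 1 of 4 Sox genes tested was higher at E15 than in the pup in the esophagus, Sox11, beside 10.9% of all genes, 2 of 5 in the GE-SCJ, Sox4 and Sox11, beside 11.4%, and 3 of 5 in the stomach, Sox4, Sox11 and Sox12, beside 10.6%. Higher in pup stroma were none in the esophagus, none in the GE-SCJ and Sox5 in the stomach, beside 8.33%, 8.13% and 7.58% of all genes. After centering, the genes past 2-fold were Sox11 in the esophagus, Sox11 and Sox5 in the GE-SCJ, and Sox4, Sox11 and Sox5 in the stomach, where the share of calls higher at E15 went from 58.4% to 46.9%. Of 6 listed genes, known Sox4 and Sox11 targets or genes of young neurons, 3 were tested in stomach stroma. Tead2, Dcx and Stmn2 were all higher at E15. In neural cells Tead2 read 120 CPM, near its 103 CPM in Stromal cells, while Dcx read 56.6 CPM and Stmn2 416 CPM. Tubb3 stood at 216 CPM and Elavl3 at 136 CPM in neural cells. Nefl read 7.48 CPM there, below its 13.6 CPM in Smooth Muscle cells. Of 10 listed endothelial genes, Cdh5, Kdr, Cldn5, Flt4 and Erg were highest in Endothelial cells at 960, 723, 373, 128 and 87.6 CPM, while Lyve1 was highest in Immune cells at 419 CPM and Notch1 in Neural cells at 233 CPM.

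Between esophageal and stomach stroma, 2 of 5 Sox genes tested were higher in the stomach at E15, Sox11 and Sox5, beside 2.46% of all genes, and the same pair of 5 at E19, beside 4.7%. None was higher in the esophagus at these stages, beside 2.53% and 3.25%. In the pup neither of the 2 genes tested, Sox4 and Sox9, was past 2-fold, beside 3.27% of all genes higher in the esophagus and 3.04% higher in the stomach, and the log2 ratio for Sox4 was 0.71 [0.41, 1.01]. That Sox4 ratio was 1.12 [0.71, 1.55] within the Stromal label alone and -0.69 [-1.61, 0.12] within the Smooth Muscle label alone.

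Across the 45 class, region and stage groups of at least 20 cells, the pairs of Sox genes from the same group had a median Pearson's r of 0.69 on log2(CPM + 10), from 0.31 for Sox5 and Sox6 to 0.97 for Sox17 and Sox18, and pairs from different groups a median of 0.093, from -0.39 to 0.69. All groups come from the same library and many share a cell class, so these values are descriptions. Only 2 of the 45 groups were endothelial. Sox17 and Sox18 read at most 6.33 and 7.79 CPM in the others, so their r of 0.97 rests on those 2 groups. The same holds for the r of either gene with the other Sox genes. Those pairs enter the median of pairs from different groups, and its value of 0.093 is that of Sox4 and Sox17. Sox4 and Sox11, with boxes 88.6% identical, gave 0.79, and Sox9 and Sox17, the closest boxes between groups at 76.4%, gave -0.20.

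The genes whose levels were most like each Sox gene over the same groups were Celsr2, Kif21a and Mycl for Sox2, Foxa1, Klf5 and Fermt1 for Sox21, Krt18, 9030622O22Rik and Atp1b1 for Sox9, and Plxnb1, Ptpn13 and Kremen1 for Sox6. For the group C genes they were Fnbp1l, Mex3a and Traf4 for Sox4, Tcf3, Rcor2 and Mex3a for Sox11, and Maged1, Grb10 and Nrep for Sox12, so Mex3a was among the 3 for both Sox4 and Sox11. They were Ppp2r2b, Dtna and Lima1 for Sox5, Ptprb, Myct1 and Cldn5 for Sox17, and Gpihbp1, Myct1 and Aplnr for Sox18. Pearson's r of these genes ran from 0.81 to 0.99, and at least 2 of the 3 genes were the same with Spearman's rho for 4 of the 10 Sox genes and with groups of at least 50 cells for 2 of the 10. For Sox17 and Sox18 the r again rests on the 2 endothelial groups.

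Of 10 further Sox genes looked up, 8 were measured and 6 reached 10 CPM in a label. In Neural cells these were Sox10 at 238 CPM, the factor of enteric glia and neural crest, Sox8 at 45.9 CPM and Sox3 at 18.4 CPM. Sox13, the third group D gene, was highest in Endothelial cells at 38.7 CPM, and Sox15 stood at 14.3 CPM in Squamous Epithelial cells.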

How the data were processed

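The authors counted UMIs per gene and cell with Cell Ranger 6.1.1 against the mouse build mm10 (GRCm38), assigned cells to region and stage by their oligonucleotide tags, removed cells by genes, UMIs and mitochondrial share, and deposited raw counts of 19550 genes in 7808 cells beside a table of metadata with the label, tag, total and percent of mitochondrial UMIs of each cell. The deposited counts matched the deposited totals and tags in all 7808 cells. Cells had 519 to 79817 UMIs and at most 19.7% mitochondrial UMIs. The study's limits on genes and UMIs were its treatment of doublets, and no doublet caller was run here.

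Counts were summed by the study's label, region and stage, and CPM was computed with exact Poisson intervals, shares with exact Clopper-Pearson intervals after thinning to 5000 UMIs, and log2 ratios with 1 UMI added to each sum and an exact interval conditional on both sums (95% throughout, counting error only). UMI sums of 0 allow up to 3 UMIs. Groups of at least 20 cells (45 of 76) entered orders and correlations. The ratios were tested before use on simulated Poisson counts of 1 comparison. Changes planted there were larger, and in genes of higher counts, than the limits used here. The simulation therefore does not cover true changes near those limits or counts that are uneven between cells. The 10 Sox genes and the lists were chosen with earlier results of these data known. Each Sox gene is described in full, other Sox genes are named where a label reached 10 CPM, and the 3 most similar genes (at least 200 UMIs) are named for each. Similarity of HMG boxes is given over bases. Splits by a marker compare cells of 2 or more UMIs with cells of none. Python 3.11.15 with numpy 2.4.6, pandas 2.3.3, scipy 1.17.1 and matplotlib 3.10.9 was used. The result for 1 marker split is not reported here. Alternatives covered the scaling, the cells kept, the fold, the UMI minimum and the labels.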

Additional observations from a re-analysis of the deposited data

Results flagged for a closer look

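Several Sox genes moved in opposite directions in different cells or stages, with intervals on either side of 0, and none of these differences was tested, since each group was 1 sample. Sox4 had a log2 ratio of E15 over pup of 1.86 in stomach columnar cells and -0.68 in esophageal squamous cells. Sox5 had 1.42 in stomach columnar cells and -1.27 in stomach stroma, where the Stromal label alone gave 0.79. Sox9 had 0.90 in esophageal squamous cells and -0.57 in esophageal stroma, but within the Squamous Epithelial label alone the first was 0.24 [-0.20, 0.69], an interval that held 0. At the GE-SCJ the log2 ratio of squamous over columnar cells for Sox4 was 0.93 in the pup and -1.24 at E19, and the ratio of esophageal over stomach stroma for Sox4 was 0.71 in the pup and -0.51 at E15.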

How the results depend on the processing

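With no minimum of UMIs, the number of Sox genes past 2-fold between GE-SCJ squamous and columnar cells was 2, 5 and 6 over the 3 stages (1, 2 and 2 with the minimum), between E15 and pup 4 in esophageal squamous cells and 3 in esophageal stroma (2 and 1), and between esophageal and stomach stroma of the pup 5 (0). With a fold of 1.5 it was 3 and 4 at the GE-SCJ at E15 and in the pup, 4 in esophageal squamous cells, 2 and 4 in esophageal and GE-SCJ stroma between E15 and pup (1 and 2 at 2-fold), and 1 between the stromata of the pup. Without the 1% of cells highest in a gene it was 2 in esophageal stroma and 1 between the stromata at E15 (2 with all cells), and with a minimum of 50 UMIs it was 1 between the stromata of the pup. The log2 ratio of E15 over pup for Sox5 in stomach stroma was -1.27 and 0.79 in the Stromal label alone. For Sox11 the log2 ratio of Prox1-positive over Prox1-negative endothelial cells was -1.77, on 14 positive cells, and 0.17 when 1 UMI counted as positive. The cause was not tested. Of 38 ratios past 2-fold, 38 were past it with 0.5 UMI added, in deeper cells or without the highest cells, 37 without mitochondrial, ribosomal and hemoglobin genes, 35 with the mean of each cell's CPM and 31 after centering on the median of all genes, a choice made after seeing the data, as was each label alone. Within the Squamous Epithelial label 15 of 17 were past it, within the Stromal label 13 of 14 and within the Smooth Muscle label 12 of 14. No paired analysis was possible because each group was 1 pooled sample with no replicates. Intervals were wide where few UMIs were read, as in postnatal endothelial, neural and stromal cells.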
